A study of Mus musculus with 24 samples.

Results

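The potassium channel genes of the mouse were taken as all genes whose symbol is Kcn, then lower-case letters, then a number. This rule found 92 of the 55450 genes in the table, in 20 subfamilies, with no symbol occurring more than once. It used names only and no measured value. It left out 7 genes whose names begin in the same way but do not have this form, such as the antisense RNAs Kcnq1ot1 and Kcnd3os, the Kcne-like gene Kcne1l and the regulator gene Kcnrg.

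The study compared knockout (KO) mice that lack Thumpd1, the adapter protein that Nat10 needs to acetylate cytidine in transfer RNA, with wild-type (WT) mice. Total RNA was sequenced from cerebellum, liver and testes, with 4 WT libraries (replicates 1 to 4) and 4 KO libraries (replicates 5 to 8) for each tissue. The KO allele was made with CRISPR-Cas9 aimed at exons 1 and 4 of Thumpd1 in C57BL/6N eggs and was then kept and backcrossed on C57/BL6. Both groups were untreated and 6 to 12 weeks old, the labels allow either sex, and age-matched littermates served as the usual controls. Several founder lines were made, and the line behind these libraries was not given in the sources used here.

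Potassium channels let potassium ions pass through the cell membrane and set its resting voltage and the shape of its action potentials. Their pore-forming subunits can be voltage-gated (Kcna, Kcnb, Kcnc, Kcnd, Kcnh and Kcnq), silent partners of voltage-gated subunits (Kcnf, Kcng, Kcns and Kcnv), inwardly rectifying (Kcnj), leak channels (Kcnk) or gated by calcium, sodium or pH (Kcnma, Kcnn, Kcnt and Kcnu). Accessory subunits (Kcnab, Kcne, Kcnip and Kcnmb) form no pore and change the gating and trafficking of the others. In the cerebellum such channels allow fast repetitive firing, and in sperm a pH-sensitive channel is needed for fertility.

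The pore-forming members share a short stretch of coding sequence, the selectivity filter, that the accessory members lack, and it is shown here because it separates the pore-forming from the accessory genes described below. It was searched in frame on the coding strand, as 5 codons in a row: ACN, TCN, AGT or AGC, then NNN, then GGN, then TAT, TAC, TTT or TTC, then GGN. The longest complete coding sequence of each gene in GENCODE M21 was used, on the mm10 (GRCm38) build. All 77 pore-forming and silent members had a match, and the 15 accessory members had 0, as compared with 572 of 21584 protein-coding genes (2.65%). In the Kcnk subfamily, 11 of 14 members had a second match, which is the usual form of these leak channels. The sequences that follow are all in coding exons and are written 5′ to 3′ on the strand of the gene, with the 5 codons in capitals. They are those of Kcnh5 (chr12:75087460-75087486, minus strand), Kcnh7 (chr2:62777337-62777363, minus), Kcnc2 (chr10:112456223-112456249, plus), the silent Kcns2 (chr15:34839606-34839632, plus) and Kcnf1 (chr12:17175055-17175081, minus), the second match in Kcnk5 (chr14:20144642-20144668, minus) and in Kcnk3 (chr5:30622196-30622222, plus), Kcnma1 (chr14:23528407-23528433, minus) and Kcnu1 (chr8:25881384-25881410, plus).
Kcnh5: cttacaACCATAGGATTTGGAaacata
Kcnh7: ctaaccAGTGTAGGATTTGGAaatgtg
Kcnc2: atgactACCTTAGGTTACGGGgatatg
Kcns2: atgaccACAGTTGGGTACGGAgatgtg
Kcnf1: atgaccACAGTGGGCTATGGTgacatc
Kcnk5: atctccACCATTGGCTTTGGGgacttt
Kcnk3: ctcaccACCATCGGCTTCGGCgactat
Kcnma1: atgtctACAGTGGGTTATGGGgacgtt
Kcnu1: atgtcaACTGTTGGCTTTGGGgacgtg

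The fourth capital codon was TAT or TAC in 59 first matches, and TTT or TTC in 16, which included the 8 Kcnh members and Kcnu1, and the sequences of the other 2 members were not used here. It was TTT or TTC in each of the 11 second matches of the Kcnk members. The first capital codon was AGT or AGC in 7 members, all of them Kcnh genes, and Kcnh5 was the Kcnh gene outside this set.

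The libraries held 16353797 to 37889615 counts each. Thumpd1 was at 9.19 to 26.3 CPM (counts scaled to a common library total) in the 12 WT libraries and at 0 to 1.14 CPM in the 12 KO libraries, so its level went with the label in each. The study calls the libraries of a group biological replicates, but the labels tie no library to an animal, and p-values measure only the spread between these libraries. In cerebellum and liver, libraries with neighbouring numbers (1 with 2, 3 with 4, 5 with 6, and 7 with 8) deviated from their group mean more alike than any other pair of a group, with correlations over genes of -0.0471 to 0.325 as compared with -0.703 to -0.41 in cerebellum. This did not hold for the size of the differences, since WT liver libraries 3 and 4 had a median absolute log2 difference of 0.168 (1 and 3 had 0.154) and KO cerebellum libraries 5 and 6 one of 0.114 (5 and 7 had 0.1). The likeness of deviations also held for the KO libraries of testes, but not for WT libraries 1 and 2 of testes. In an analysis added after the data were seen, each such pair was summed to 1 library, which leaves 2 against 2 per tissue. Limma then called 0 members in each of the 3 tissues. At an unadjusted p under 0.05 it had 20, 2 and 13 members in cerebellum, liver and testes, which was not counted over all genes.

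The cerebellum held by far the most potassium channel RNA. The 92 members summed to 7318 ± 191 CPM in WT cerebellum (SD, n = 4), to 607 ± 9.01 CPM in WT testes and to 110 ± 0.634 CPM in WT liver. Among the members, 59 had their highest WT mean in cerebellum, 27 in testes and 5 in liver, and Kcnk16 had 0 counts in every WT library. A count of 0 allows up to 3 counts, which is 0.0792 to 0.183 CPM over the 24 libraries and covers counting error only. A gene was tested in a tissue where at least 4 of its 8 libraries reached 1 CPM. This held for 61 members in cerebellum, 11 in liver and 50 in testes. In all 3 tissues it held for 5 members, among them Kcnj8, Kcnk3 and Kcnk6, and in none for 19, such as Kcna5, Kcnj1, Kcnj4, Kcnv1 and Kcnv2. The members that were tested in testes alone were Kcne3, Kcne4, Kcng1, Kcng2, Kcng3, Kcnh8, Kcnk7, Kcnmb3, Kcnn4 and Kcnu1.

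**Figure D1:**
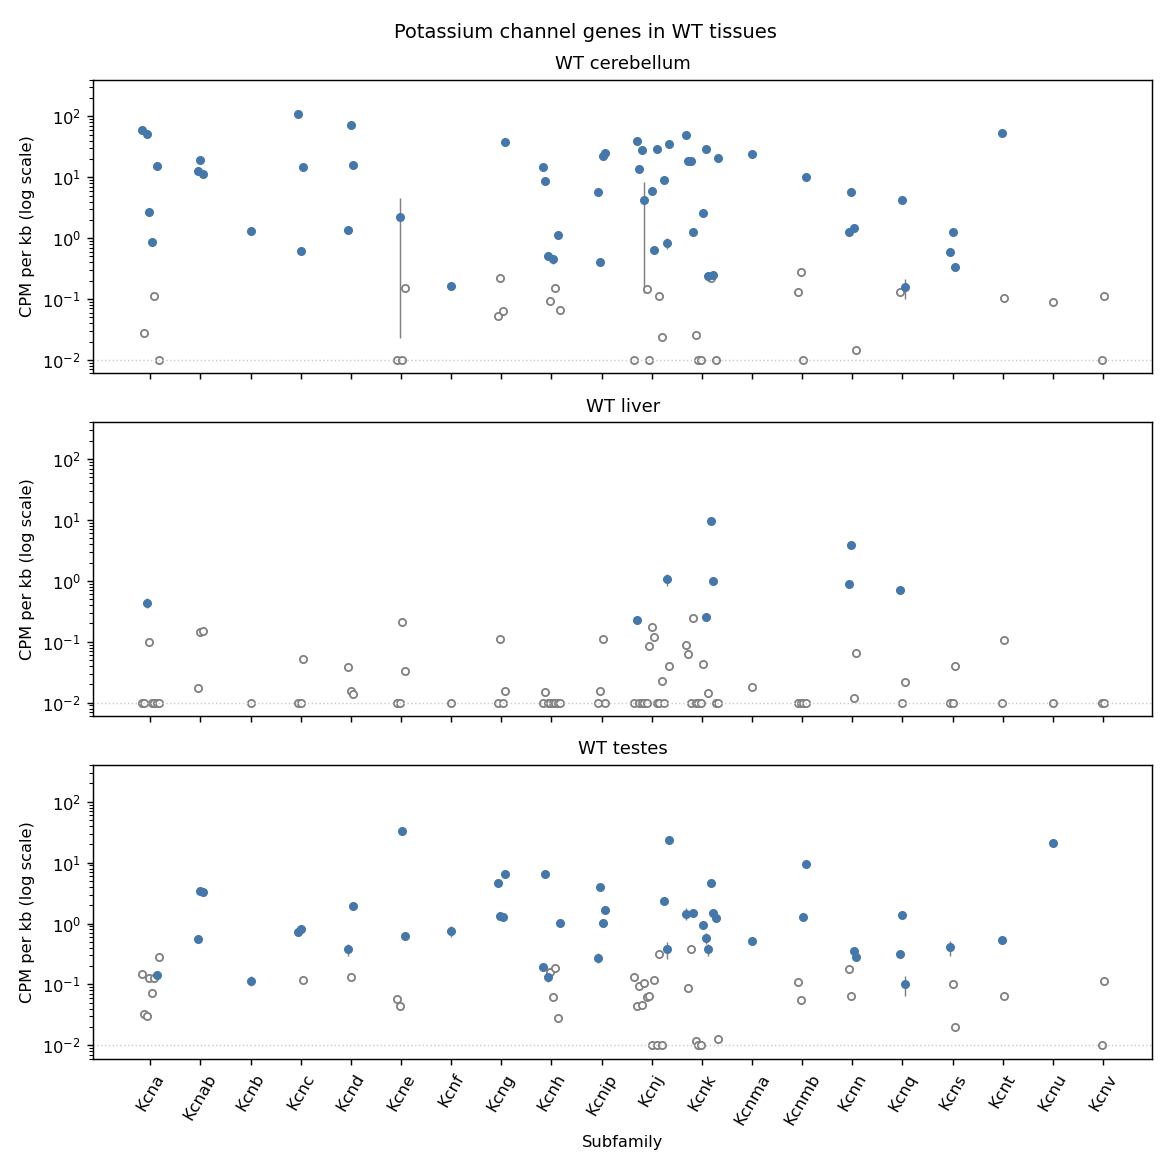
WT level of 88 potassium channel genes as CPM per kilobase of exon (log scale) by subfamily in cerebellum, liver and testes, with bars for the SD of 4 libraries. Filled points were tested in that tissue, open points were not, and points on the dotted line are at 0.01 or less. Of the genes shown, Kcnc1 leads in cerebellum at 109, Kcnk5 leads in liver at 9.58, and Kcne3, Kcnj9 and Kcnu1 lead in testes at 33.1, 23.3 and 21.1.

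To compare genes with each other, levels were divided by the length of the exons (CPM per kilobase). Among the highest in WT cerebellum were the fast-gating Kcnc1 at 109 ± 4.32 CPM per kilobase, the A-type channel gene Kcnd2 (73.1 ± 2.69), the low-threshold channel gene Kcna1 (60.6 ± 2.87) and the sodium-activated Kcnt1 (53.9 ± 2.37). Kcnc was the leading subfamily there, with 27.9% of the summed CPM of all members, and Kcna came next with 13.6%. Leading members of other subfamilies in cerebellum were the leak channel gene Kcnk1 (49.4 ± 1.09), the glial inward rectifier gene Kcnj10 (39.6 ± 1.44), the silent Kcng4 (38.2 ± 1.19), the accessory Kcnip4 (24.9 ± 0.909) and Kcnab2 (18.9 ± 1.22), the calcium-activated Kcnma1 (24.6 ± 1.31) and Kcnn2 (5.80 ± 0.125), Kcnh1 (14.6 ± 0.399), Kcnmb4 (10.1 ± 0.666), Kcne2 (2.26 ± 2.55), Kcns2 (1.28 ± 0.0618) and Kcnf1 (0.166 ± 0.0256). For Kcne2 the SD was larger than the mean.

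In WT liver 2 genes held most of the signal. The leak channel gene Kcnk5 was at 9.58 ± 0.472 CPM per kilobase and the small-conductance calcium-activated channel gene Kcnn2 at 3.85 ± 0.291, and the Kcnk and Kcnn subfamilies made up 35.9% and 30.3% of the summed CPM. The pore gene of ATP-sensitive channels Kcnj8 (1.06 ± 0.225) and Kcnk6 (0.989 ± 0.115) were lower, and did not differ beyond their spread. Kcnq1 (0.715 ± 0.0563) and Kcna2 (0.436 ± 0.0775) led their own subfamilies. The other subfamilies had no tested member in liver.

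In WT testes the order was different. It was led by the accessory subunit gene Kcne3 (33.1 ± 1.30 CPM per kilobase), Kcnj9 (23.3 ± 1.22), a subunit of G protein-gated inward rectifiers, Kcnu1 (21.1 ± 0.368), the alkalization-activated channel of sperm, Kcnmb4 (9.41 ± 0.241), a subunit of calcium-activated channels, and Kcng4 (6.61 ± 0.494). Kcnh2, the channel of the rapid delayed rectifier current, was close to Kcng4 at 6.51 ± 0.601, within the spread of both. Other leading members were Kcnk5 (4.59 ± 0.171), Kcnip2 (4.02 ± 0.0977), Kcnab2 (3.4 ± 0.268), Kcnd3 (1.97 ± 0.155), Kcnq3 (1.39 ± 0.0436), Kcnc2 (0.827 ± 0.130), Kcnf1 (0.763 ± 0.163), Kcnt1 (0.533 ± 0.0484), Kcnma1 (0.521 ± 0.0257), Kcns1 (0.410 ± 0.116), Kcnn3 (0.351 ± 0.0299) and Kcna7 (0.287 ± 0.0518), the last of which was below the filter. The summed CPM of testes came from more subfamilies than that of liver, with Kcnj at 20.1%, Kcnu at 13%, Kcne at 10% and Kcng at 8.94%.

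The WT tissues were then compared with limma over all 24 libraries, with TMM scaling (edgeR), on 22678 genes that included 74 members. A difference was called at 2-fold or more with an adjusted p (Benjamini-Hochberg, over all genes tested) under 0.05. Of the 74 members, 61 were higher in cerebellum than in liver and 8 were lower, as compared with 33.9% and 25.5% (59.4% together) of all genes tested. Between testes and liver 50 members were higher in testes and 10 lower (48% and 25.2% of all genes, 73.2% together). Between testes and cerebellum 15 were higher in testes and 48 lower (42% and 29.1% of all genes, 71.1% together). The scaling between tissues mattered, since the median of all genes between cerebellum and liver was -0.04 (log2) with TMM factors and 1.16 with library totals alone. Quantile normalization over all libraries gave 30 members higher and 29 lower in testes than in liver (34.8% and 39.9% of all genes). Library totals gave 57 and 9 (60% and 16.5% of all genes). Kcnn2 changed direction between cerebellum and liver, at -0.60 (log2) with TMM and 0.60 with library totals.

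Under all 3 scalings, 55 members were higher in cerebellum than in liver and 5 were lower (Kcne3, Kcnk5, Kcnk6, Kcnn4 and Kcnq1). Kcnk5 was the clearest of these, with a log2 difference of -6.59 with TMM, -5.39 with library totals and -6.69 with quantile normalization. Between testes and cerebellum, 12 were higher in testes and 48 lower under all 3, though neither comparison was counted in this way over all genes. Kcnu1, for instance, was higher in testes by 8.12 ± 0.363 (log2 ± SE, TMM). Neighbouring members could differ in tissue. Kcnj9 and Kcnj10 are 11891 bp apart on chromosome 1, and in WT testes Kcnj9 was at 99.9 ± 5.25 CPM (23.3 per kilobase) while Kcnj10 was at 0.24 CPM (0.0443 per kilobase), although both were high in cerebellum (34.8 and 39.6 per kilobase). In the same way Kcnk5 lies 79566 bp from Kcnk16, which had 0 counts in the WT libraries.

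The comparison of KO with WT was fitted in each tissue apart (limma-voom on quantile normalized counts). A member is said to have risen or fallen only where its adjusted p over all genes tested in that tissue was under 0.05, and changes are log2 differences, KO minus WT, with their SE. In cerebellum 9 of the 61 tested members rose and 1 fell, which is 16.4% as compared with 6.44% of the 16225 genes tested (3.93% rose and 2.51% fell). In liver 0 of 11 rose and 1 fell with limma (9.09% as compared with 5.91% of 12816 genes, of which 2.79% rose and 3.12% fell), while edgeR, DESeq2 and limma with TMM each called 1 higher and 1 lower. In testes 8 of 50 rose and 6 fell (28% as compared with 20.5% of 19329 genes, of which 9.74% rose and 10.7% fell). At an unadjusted p under 0.05, limma had 27 members in cerebellum, 3 in liver and 19 in testes, as compared with 24.2%, 23.3% and 37% of all genes. Whether counting used the strand was not given in the sources used here, so members that share exon sequence with an opposite-strand gene are uncertain. Such overlap is stated below for Kcnj13 and for the called members named. The tested members had a median change of 0.07 (cerebellum), -0.064 (liver) and -0.069 (testes), beside -0.006, -0.003 and 0.0001 for all genes tested. With TMM in place of quantile normalization the median of the members was 0.019 in liver, so its sign turned, and -0.0227 in testes. The summed CPM of the members was 7397 ± 196 in KO cerebellum, 90.2 ± 5.57 in KO liver and 615 ± 14.2 in KO testes.

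**Figure D2:**
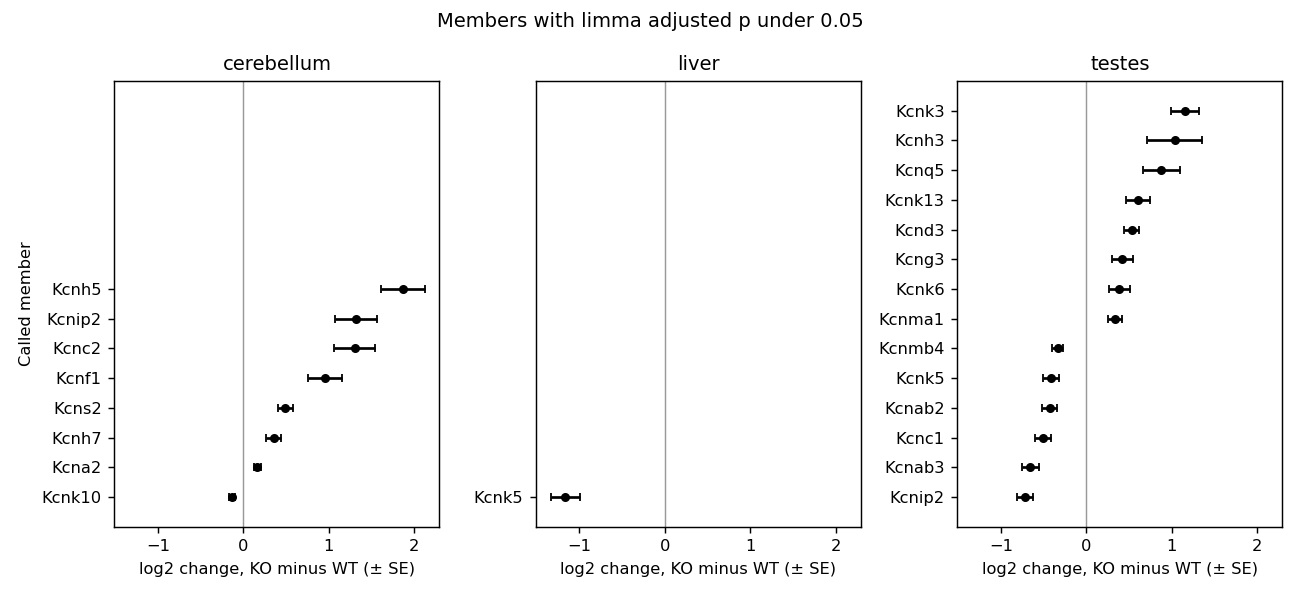
Change of called potassium channel genes (log2, KO minus WT, on the x axis, with bars for the SE) in cerebellum, liver and testes. In cerebellum 7 of the 8 shown lie to the right of 0, with Kcnh5 farthest at 1.87, in liver Kcnk5 stands alone at -1.16, and in testes 8 lie to the right and 6 to the left, from Kcnk3 at 1.15 to Kcnip2 at -0.72.

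In cerebellum the largest rise was in Kcnh5, a voltage-gated channel gene of the ether-a-go-go family. It was at 1.73, 2.35, 1.63 and 1.68 CPM in WT and at 9.39, 9.60, 5.77 and 4.90 CPM in KO libraries. The groups did not overlap, and KO libraries 5 and 6 were higher than 7 and 8. The change was 1.87 ± 0.25 (limma adjusted p = 0.00138), and it was 1.5 without KO libraries 5 and 6 (limma adjusted p = 0.000608). Kcnh7 of the same family was at 17, 16.4, 17 and 18.5 CPM in WT and at 24, 26.7, 19.7 and 19.7 CPM in KO libraries. Here too KO libraries 5 and 6 were the highest and the groups did not overlap, and the change was 0.35 ± 0.09 (limma adjusted p = 0.0387). Without KO libraries 5 and 6 it was 0.19 and no longer passed the test (limma adjusted p = 0.118), and its exons overlap those of Gca on the other strand. Of the other tested Kcnh members, Kcnh1 (-0.06), Kcnh2 (0.15) and Kcnh3 (0.37) did not pass.

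Kcnc2, whose channel opens and closes quickly and is known from fast-spiking interneurons, was at 4.64, 5.10, 3.92 and 4.03 CPM in WT and at 15.9, 15.6, 7.66 and 8.74 CPM in KO libraries. Each KO library was above each WT library, and 5 and 6 were again the highest. The change was 1.30 ± 0.24 (limma adjusted p = 0.00822), and 0.87 without these libraries (limma adjusted p = 0.00232). Kcnc1, the abundant member of the same subfamily with 1030 ± 40.9 CPM in WT and 1070 ± 68.8 in KO, did not pass (0.06, 95% interval -0.03 to 0.15).

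Kcns2 and Kcnf1, whose silent subunits join other voltage-gated subunits, rose in cerebellum. Kcns2 was at 7.58, 7.28, 6.92 and 6.83 CPM in WT and 9.10, 10.9, 9.96 and 11.3 CPM in KO libraries, without overlap (0.49 ± 0.09, limma adjusted p = 0.00798). Kcnf1 was at 0.780, 0.971, 0.708 and 0.714 CPM in WT and 1.58, 2.20, 1.43 and 1.58 CPM in KO libraries. It reached 1 CPM in 0 WT and 4 KO libraries, so it was tested only because of its KO level (0.95 ± 0.20, limma adjusted p = 0.0149). Kcnb2 (0.11), Kcns1 (-0.21) and Kcns3 (0.23) did not pass.

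Kcna2, a channel gene of axons and terminals, was at 578, 558, 636 and 640 CPM in WT and 629, 639, 690 and 677 CPM in KO libraries. Here the groups overlapped, since WT libraries 3 and 4 were above KO library 5. Its change of 0.16 ± 0.04 passed with limma (adjusted p = 0.0369) and did not pass with edgeR or DESeq2. Kcnq3 (0.10) and Kcnq5 (0.90) did not pass, nor did Kcna1 (0.03), Kcna3 (0.17), Kcna4 (0.39) and Kcna6 (0.11).

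Among accessory subunits Kcnip2, which binds calcium and associates with the Kcnd channels, was the member called with limma. It was at 1.43, 1.25, 1.63 and 1.33 CPM in WT and 4.64, 5.44, 2.81 and 2.63 CPM in KO cerebellum. The groups did not overlap, with KO libraries 5 and 6 highest. The change was 1.32 ± 0.25 (limma adjusted p = 0.00862), and 0.94 without these libraries (limma adjusted p = 0.0116). The more abundant Kcnip1 (0.14), Kcnip3 (0.08) and Kcnip4 (-0.09) did not pass, nor did its partner genes Kcnd1 (-0.03), Kcnd2 (-0.08) and Kcnd3 (-0.01). The 3 Kcnab members, whose subunits join Shaker-type channels, each had an unadjusted p under 0.05, and limma called 0 of them, edgeR 1 and DESeq2 2. Their changes were -0.14 for Kcnab1, 0.15 for Kcnab2 and 0.21 for Kcnab3 (limma adjusted p = 0.0619, 0.0897 and 0.0505).

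The leak channel gene Kcnk10, of the TREK family, was the member that fell in cerebellum. It was at 158, 159, 168 and 167 CPM in WT and at 146, 145, 148 and 151 CPM in KO libraries. Without overlap, the change was -0.13 ± 0.03 (limma adjusted p = 0.0426). Of the 17 other analyses tried it passed in 7, and without KO libraries 7 or 8, among others, it was lost. The other 8 tested Kcnk members did not pass, of which Kcnk3 (0.16) and Kcnk9 (-0.01) were abundant at 116 and 258 CPM in WT. Of the 10 inwardly rectifying Kcnj members tested, limma called 0, edgeR 0 and DESeq2 1, and 3 had an unadjusted p under 0.05 with limma. In all, 18 of the 61 members did not overlap between WT and KO cerebellum (29.5% as compared with 13.8% of all genes), 14 of them with the KO libraries above (8.79% of all genes) and 4 below (4.99%).

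**Figure D3:**
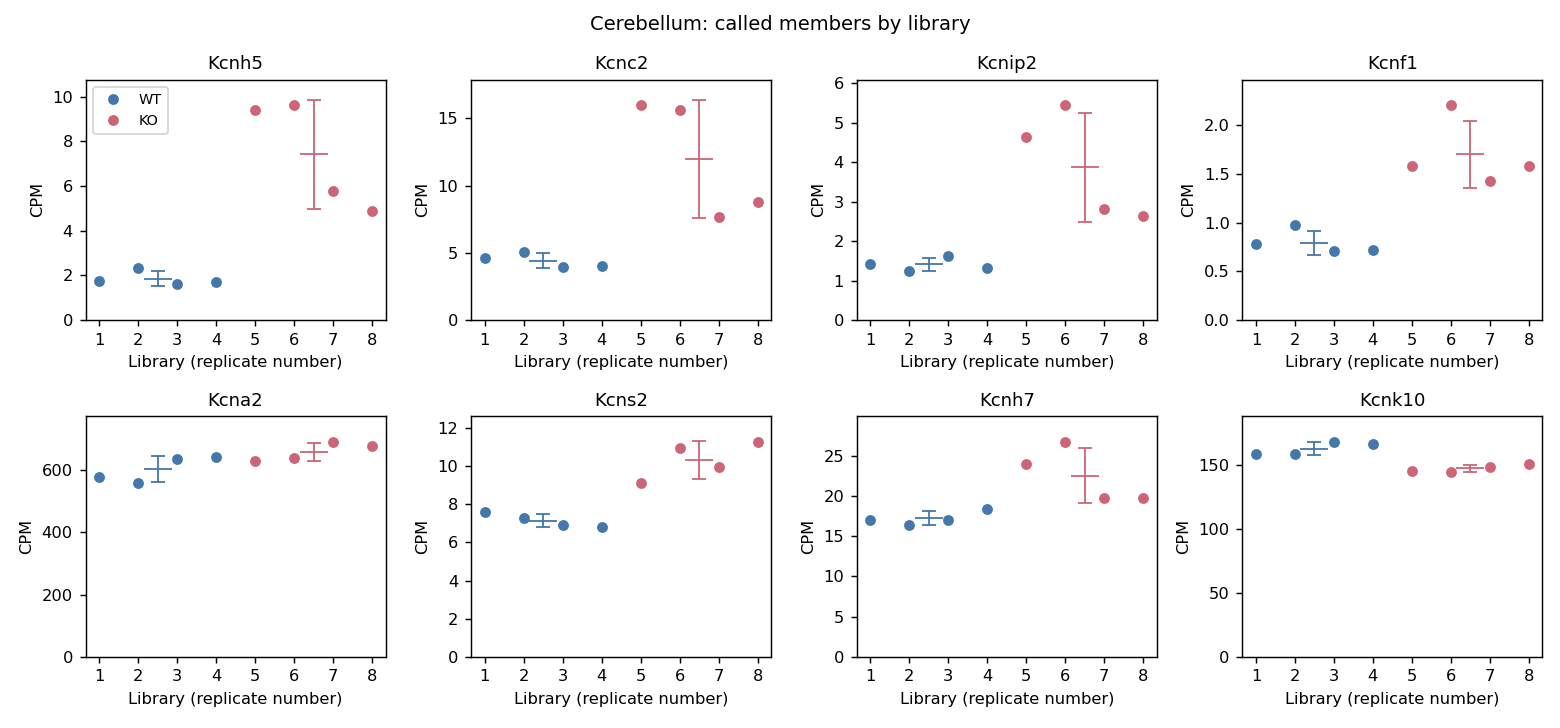
CPM (y axis, from 0) of 8 called members in each cerebellum library (x axis, replicate number), WT in blue and KO in red, with the mean and SD of each group. Kcnh5, Kcnc2, Kcnip2 and Kcnh7 are highest in KO libraries 5 and 6, while Kcna2 overlaps between the groups and Kcnk10 lies between 145 and 151 CPM in all 4 KO libraries.

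KO cerebellum libraries 5 and 6 were also the highest for Slc17a6 and Nrgn, which are known from other brain regions. The thalamic and midbrain glutamate transporter gene Slc17a6 was at 13.1, 12.1, 7.46 and 9.996 CPM in WT and 32.1, 36.4, 18.1 and 20.1 CPM in KO libraries, and the forebrain gene Nrgn was at 1.82, 1.58, 2.61 and 2.14 CPM in WT and 34.3, 28.5, 18.2 and 13.3 CPM in KO libraries. Both were above WT in all 4 KO libraries. Of a list of 10 forebrain markers, 7 were tested and 2 rose (Nrgn and Camk2a), and the list summed to 603 to 644 CPM in WT and 642 to 724 CPM in KO libraries, the highest in KO library 7. Of 10 midbrain and hindbrain markers, 5 were tested, 1 rose (Slc17a6) and 1 fell (Tfap2b), Hoxb5 had 0 counts in all libraries, and the sums were 89.5 to 105 CPM in WT and 95.9 to 119 CPM in KO. Of 8 granule cell markers, 4 fell, with sums of 6258 to 6503 CPM in WT and 5757 to 6099 CPM in KO. Of 8 oligodendrocyte markers 2 rose with limma (1 with edgeR and 2 with DESeq2), with sums of 2606 to 3123 CPM in WT and 3018 to 3226 CPM in KO. Of 8 Purkinje cell markers 2 rose with limma (0 with edgeR and 2 with DESeq2, 3 at an unadjusted p under 0.05 with limma), with sums of 5712 to 6131 CPM in WT and 5954 to 6267 CPM in KO. Of 8 astrocyte and Bergmann glia markers 1 rose (2179 to 2271 CPM in WT and 2161 to 2215 CPM in KO), and of 7 tested microglia and macrophage markers limma, edgeR and DESeq2 called 0 (3 at an unadjusted p under 0.05 with limma), with sums of 53.4 to 62.1 CPM in WT and 63.3 to 68.5 CPM in KO. The part of these markers in the changes of Kcnh5, Kcnc2, Kcnip2 and Kcnh7 was not tested. In bulk tissue, fewer cells of a type and less RNA per cell cannot be told apart.

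Kcne2 and Kcnj13, both known from the choroid plexus and other epithelia, varied widely within both groups. They are described because of this spread, after their values were seen. Kcne2 was at 8.53, 7.20, 0.109 and 0.102 CPM in WT and at 0.0565, 0.0611, 2.91 and 1.58 CPM in KO cerebellum. Kcnj13 was at 10.1, 9.91, 0.871 and 0.867 CPM in WT and 0.961, 1.16, 3.58 and 2.63 CPM in KO libraries. Of its 1270 bp of exon, 623 bp overlap Gigyf2 on the other strand, so reads of either strand could have been counted for Kcnj13. WT libraries 1 and 2 and KO libraries 7 and 8 were thus high for Kcne2 and Kcnj13. The choroid plexus transcript Ttr divided the libraries in the same way, at 935, 962, 1.09 and 0.816 CPM in WT and 1.87, 1.96, 317 and 312 CPM in KO. The 7 choroid plexus markers, 1 of which is Kcnj13 itself, summed to 17.8 to 1085 CPM in WT and 22.4 to 364 CPM in KO, and the 6 others to 17 to 1075 CPM in WT and 21.4 to 361 CPM in KO. All 7 were tested, and limma, edgeR and DESeq2 each called 0 of them, with 0 at an unadjusted p under 0.05. Neither Kcne2 (-1.94 ± 1.74, limma adjusted p = 0.535) nor Kcnj13 (-0.93 ± 0.84, limma adjusted p = 0.540) passed the test.

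**Figure D4:**
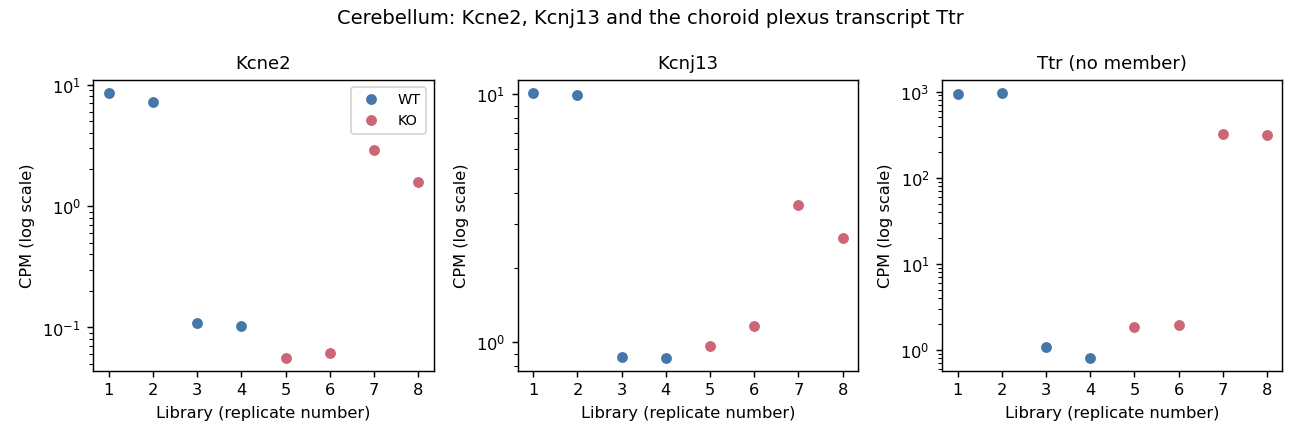
CPM (y axis, log scale) of Kcne2, Kcnj13 and, for comparison, Ttr in each cerebellum library (x axis, replicate number), WT in blue and KO in red. All are high in WT libraries 1 and 2 and in KO libraries 7 and 8, where Ttr lies between 312 and 962 CPM, and low in the other 4 libraries, where Ttr is at most 1.96.

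In liver the change was in Kcnk5, a leak channel gene of the TASK family whose product opens in alkaline conditions. It was at 34.8, 32.8, 31.5 and 31.3 CPM in WT and at 19.4, 19.6, 12.6 and 10.7 CPM in KO libraries. The groups were far from overlapping, and KO libraries 7 and 8 were the lowest. Kcnk5 fell by 1.16 ± 0.17 on the log2 scale (limma adjusted p = 0.00403). It passed in 16 of 17 other analyses, at -1.30 to -0.69, and did not pass with neighbouring libraries summed (-1.13). Without KO libraries 7 and 8 it was -0.69 (limma adjusted p = 0.00341). Hepatocyte markers summed to 49341 to 64042 CPM in WT and to 59220 to 86689 CPM in KO liver, with the highest sums in KO libraries 7 and 8, of the 8 markers 2 rose and 1 fell, and their part in the change of Kcnk5 was not tested.

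The pore gene Kcnj8, named after its values were seen because its call varied between tools, was at 3.10, 2.69, 3.11 and 1.89 CPM in WT liver and at 4.41, 4.85, 3.93 and 4.06 CPM in KO liver. Although the groups did not overlap, the change of 0.60 ± 0.17 missed the threshold with limma (adjusted p = 0.0592) and passed in 6 of the 17 other analyses, edgeR and DESeq2 among them. Of the 8 endothelial and stellate cell markers tested, limma called 0, edgeR 0 and DESeq2 1, 3 had an unadjusted p under 0.05 with limma, and the sums were 326 to 381 CPM in WT and 331 to 451 CPM in KO. Kcnk5 and Kcnj8 were the 2 of 11 members without overlap (18.2% as compared with 12.7% of all genes), 1 with the KO libraries below (5.31% of all genes) and 1 above (7.34%). The second most abundant member of liver, Kcnn2, was at 27.4, 26.9, 29.1 and 31.7 CPM in WT and 20.2, 21.8, 28.0 and 28.2 CPM in KO libraries, and did not pass (-0.19, interval -0.46 to 0.07). Kcnq1 (-0.28), Kcna2 (0.09), Kcnk6 (-0.06), Kcnj10 (-0.06), Kcnk3 (0.04) and Kcnn1 (0.01) did not pass either.

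In testes the 4 accessory subunit genes that were called fell, and of the 39 tested pore-forming or silent subunit genes 8 rose (9.74% of all genes) and 2 fell (10.7%). Of those that rose, Kcnh3 and Kcnq5 reached the filter through their KO libraries (0 and 1 WT libraries at 1 CPM) and so could hardly have been called lower. Kcnip2 was at 14.5, 13.8, 14 and 13.7 CPM in WT and 9.56, 9.39, 8.06 and 10.2 CPM in KO testes. The WT libraries were tightly grouped and all above the KO libraries. The fall was -0.72 ± 0.10 (limma adjusted p = 0.00194). The subunits of Shaker-type channels, Kcnab3 and Kcnab2, fell as well. Kcnab3 was at 9.35, 9.19, 9.76 and 9.49 CPM in WT and 6.30, 6.27, 5.93 and 7.47 CPM in KO libraries (-0.66 ± 0.10, limma adjusted p = 0.00281). Kcnab2 was at 17.6, 21.1, 18.4 and 18.8 CPM in WT and 15.1, 14.4, 14.9 and 16.5 CPM in KO libraries (-0.43 ± 0.08, limma adjusted p = 0.00742). For both, the lowest WT library was above the highest KO library, and Kcnab1 did not pass (-0.12). Kcnab3 shares exon sequence with its antisense gene Kcnab3os, and Kcnab2 overlaps Gm16334 on its own strand.

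Kcnmb4, an accessory subunit of the large-conductance calcium-activated channel, was at 30.5, 31.0, 32.4 and 31.3 CPM in WT and at 26.9, 27.5, 26.4 and 24.8 CPM in KO testes. Again there was no overlap, and the fall was -0.34 ± 0.07 (limma adjusted p = 0.00758). The pore gene of that channel, Kcnma1, rose instead, from 9.44, 8.91, 8.52 and 8.52 CPM in WT to 11.2, 12.8, 12.9 and 11.2 CPM in KO libraries (0.33 ± 0.08, limma adjusted p = 0.0158). Kcnma1, like Kcnmb4, overlaps genes on the other strand, so reads of either strand could have been counted for them. Kcne3, the member with the highest level per length in testes, was at 61.7, 56.2, 58.0 and 59.4 CPM in WT and 61.4, 57.0, 45.5 and 46.3 CPM in KO libraries. Only KO libraries 7 and 8 were below the WT range, and Kcne3 did not pass (-0.24, limma adjusted p = 0.120). In all, 4 of the 11 accessory members tested in testes fell, beside 10.7% of all genes, and the others did not pass.

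Of the leak channel genes tested in testes, 3 of 8 rose and 1 fell, beside 9.74% and 10.7% of all genes. Kcnk3, an acid-sensitive channel of the TASK family, was at 2.34, 2.98, 2.11 and 1.82 CPM in WT and at 5.05, 4.44, 6.06 and 6.61 CPM in KO libraries. The KO libraries were all higher, 7 and 8 most of all, and the rise was 1.15 ± 0.16 (limma adjusted p = 0.00253). Kcnk3 shares exon sequence with Gm9899 on the other strand. Kcnk13, a channel of the THIK family, was at 4.67, 5.06, 4.45 and 4.46 CPM in WT and 6.17, 6.78, 10.2 and 7.71 CPM in KO libraries (0.60 ± 0.14, limma adjusted p = 0.0143). Its highest value was in KO library 7. Kcnk5 fell from 15, 16.2, 15.2 and 16.1 CPM in WT to 12.9, 13.7, 10.9 and 13.7 CPM in KO libraries (-0.41 ± 0.10, limma adjusted p = 0.0148). Kcnk6 was called with overlapping groups (0.39 ± 0.13, limma adjusted p = 0.0494) and was lost in 10 of the 17 other analyses, for instance without KO libraries 7 and 8.

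Among voltage-gated genes in testes, Kcnd3, an A-type channel, was at 19.0, 20.8, 18.6 and 17.2 CPM in WT and at 26.6, 26.2, 34.0 and 29.8 CPM in KO libraries. The groups were well apart, with KO libraries 7 and 8 highest, and the rise was 0.53 ± 0.09 (limma adjusted p = 0.00384), for a gene that overlaps its antisense gene Kcnd3os. Kcnc1 went the other way, from 6.64, 7.26, 6.85 and 7.07 CPM in WT to 4.89, 5.50, 5.27 and 5.50 CPM in KO libraries (-0.51 ± 0.09, limma adjusted p = 0.00528). It was the 1 voltage-gated pore gene called lower in testes. Kcnq5 was at 1.1, 0.900, 0.568 and 0.534 CPM in WT and 1.28, 1.5, 1.83 and 1.63 CPM in KO libraries (0.87 ± 0.22, limma adjusted p = 0.0177), and 1 WT library and 4 KO libraries reached 1 CPM. It overlaps Gm26580 on the other strand. Kcnh3 was at 0.623, 0.993, 0.769 and 0.723 CPM in WT and 1.09, 1.28, 2.89 and 2.11 CPM in KO libraries. It reached 1 CPM in 0 WT libraries, was tested only through its KO level, and rose by 1.03 ± 0.32 (limma adjusted p = 0.0402), and shares 1 bp of exon with Mcrs1 on the other strand. This call was lost in 7 of 12 other analyses, among them those without any single WT library (0.89 to 1.13). The silent Kcng3 was at 4.64, 4.28, 4.01 and 3.99 CPM in WT and 5.25, 5.24, 7.35 and 6.88 CPM in KO libraries (0.42 ± 0.12, limma adjusted p = 0.0338). Without KO libraries 7 and 8 Kcng3 no longer passed (0.22, limma adjusted p = 0.181).

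**Figure D5:**
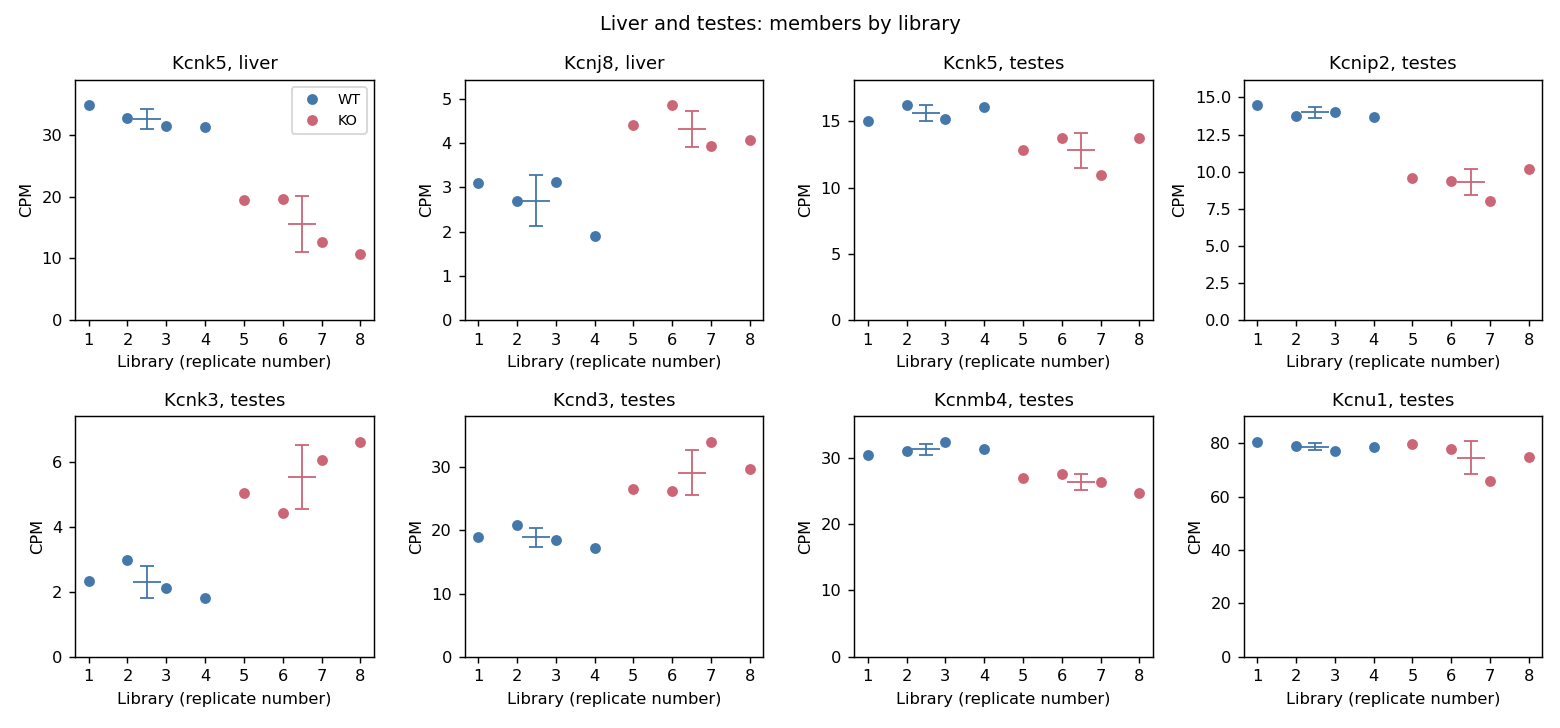
CPM (y axis, from 0) of members in each liver or testes library (x axis, replicate number), WT in blue and KO in red, with the mean and SD of each group. Kcnk5 is lower in KO in both tissues, at 10.7 to 19.6 CPM in KO liver and 10.9 to 13.7 in KO testes, Kcnk3 and Kcnd3 are higher in KO testes, and Kcnu1 overlaps between the groups.

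The most abundant members of testes that are known from sperm did not pass. Kcnu1 was at 80.5, 79.1, 77.2 and 78.6 CPM in WT and at 79.7, 78.1, 66.1 and 74.8 CPM in KO testes. KO libraries 5 and 6 lay within the WT range and 7 and 8 below it, and the change was -0.12 (interval -0.27 to 0.03, limma adjusted p = 0.217). Lrrc52, whose product is the auxiliary subunit of the Kcnu1 channel, fell from 21.9, 23.5, 21.4 and 21.1 CPM in WT to 14.6, 14.3, 14.4 and 14.9 CPM in KO libraries (-0.70 ± 0.07, limma adjusted p = 0.000715). Kcnj9 was at 99.9 ± 5.25 CPM in WT and 96.1 ± 8.60 in KO (-0.08, limma adjusted p = 0.462). In testes 15 of 50 members did not overlap between the groups (30% as compared with 28.6% of all genes), 8 with the KO libraries above (18.8% of all genes) and 7 below (9.8%).

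Some marker lists of testis cells moved with genotype and others did not. Of 8 Sertoli cell markers 6 rose, and their sum was 959 to 1133 CPM in WT and 1224 to 1773 CPM in KO libraries, with the highest in KO library 7. Of 7 round spermatid markers 4 fell, with sums of 842 to 853 CPM in WT and 682 to 806 CPM in KO, and of 7 elongating spermatid markers 5 fell, from 12042 to 12666 CPM in WT to 8732 to 11079 CPM in KO. KO libraries 7 and 8 had the lowest sums of both spermatid lists. Of 7 spermatocyte markers limma called 0 (3 at an unadjusted p under 0.05), edgeR 1 and DESeq2 1, with sums of 1887 to 1962 CPM in WT and 1913 to 1949 CPM in KO. Of 7 Leydig cell markers 1 rose and 1 fell (sums of 1100 to 1192 CPM in WT and 973 to 1604 CPM in KO), and of 7 spermatogonia markers 1 rose (118 to 131 CPM in WT and 128 to 192 CPM in KO). The part of these markers in the changes of the members was not tested. Without KO libraries 7 and 8, 11 members were called in testes, 5 up and 6 down. The share of all genes called in that fit is not given here, so the count has no background beside it.

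Across tissues, 21 members were called in 1 tissue and 2 in 2 tissues. The same counts over all genes were not made, so these numbers have no background beside them. Only 5 members were tested in all 3 tissues. Kcnip2 rose in cerebellum and fell in testes, and Kcnk5 fell in liver and in testes. For these 2 the difference between tissues was not tested, since Kcnip2 was below the filter in liver and Kcnk5 in cerebellum. The difference of the KO effects was tested for the 5 members that passed the filter in each tissue. Between cerebellum and liver 1 of the 5 was called (7.67% of all genes), and Kcnk3 was not (-0.01 ± 0.23, limma adjusted p = 0.988). The effect on Kcnk3 was higher in testes than in liver by 0.98 ± 0.27 (limma adjusted p = 0.0140, and up to 0.076 in the 3 of 11 other analyses that lost the call, without replicate 1, 4 or 8), the 1 call of 5 (15.9% of all genes). Between testes and cerebellum, Kcnk3 differed by 0.99 ± 0.16 (limma adjusted p = 0.000498), 1 of 2 calls among the 5 (14.5% of all genes). Kcnj8 and Kcnk6 were not called in these comparisons. The comparisons share libraries, and so are not independent of one another.

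Other ion transport genes were taken from lists of channel partners, sodium-potassium pumps, potassium-chloride cotransporters, sodium and calcium channels and sperm ion channels, 73 genes in all. In cerebellum 3 of the 51 tested rose and 2 fell (3.93% and 2.51% of all genes), among them Cacna1h (1.04 ± 0.14, a T-type calcium channel gene) and Scn3a (1.02 ± 0.16, a sodium channel gene), which rose, and the calcium channel genes Cacnb4 (-0.26 ± 0.05) and Cacna1i (-0.19 ± 0.04), which fell. In liver limma called 0 of 18, edgeR 1 and DESeq2 2, and 6 had an unadjusted p under 0.05 with limma. In testes 7 of 62 rose and 10 fell, as compared with 9.74% and 10.7% of all genes. Besides Lrrc52, the accessory subunit gene Lrrc55 (-0.66 ± 0.14) and the calcium channel gene Cacna1e (-0.48 ± 0.10) fell, and the sodium channel gene Scn4a rose (1.06 ± 0.17). Of the 10 tested genes of the sodium-potassium pump list 6 rose in testes, and of the 9 tested genes of the accessory subunit list 4 fell, against the same shares.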

How the data were processed

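Total RNA of 24 libraries was depleted of ribosomal RNA, sequenced as stranded paired-end libraries on a NovaSeq, aligned with STAR and quantified with RSEM on mm10 with GENCODE M21 by the authors, who deposited expected counts per gene, and of the values above 0 in a library 12.3 to 16.6% had a decimal part other than 0 (exact, with no tolerance). The versions and the strand setting were not given in the sources used here. Totals were 16353797 to 37889615 per library, which sets the precision of low members, and intervals on counts cover counting error only. Groups came from the labels, 4 libraries for each of 6 groups, and no column was left unmapped.

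The deposited expected counts were used as they are, and rounded for edgeR and DESeq2. In each tissue, genes with at least 1 CPM in at least 4 of 8 libraries were quantile normalized and fitted with limma-voom (limma 3.58.1, R 4.3.3), after the study's methods, with Benjamini-Hochberg adjustment over all genes tested. WT tissues and differences of KO effects were fitted over all 24 libraries, both with TMM factors in the main fit. Alternatives were edgeR 4.0.16 (quasi-likelihood), DESeq2 1.42.0, TMM, other filters, sample weights, a single joint fit, leaving out each library in turn and, added after the data were seen, pairs of libraries left out or summed and library totals only. The code was tested on simulated counts.

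The members, gene lists and tests were chosen with earlier results of these data known. Some members and their results are not reported here, though they are counted in the totals. Otherwise the text names every called member, the 5 highest per length and the highest of each subfamily in a tissue where the subfamily had a tested member, members whose KO effect differed between tissues, and up to 4 called genes per tissue of the ion transport lists. Kcnj8, Kcne2 and Kcnj13, and the marker genes beside them, were named after their values were seen. Annotation and sequences are those of GENCODE M21, whose gene identifiers matched all 55450 in the table.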

Additional observations from a re-analysis of the deposited data

Results flagged for a closer look

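Of 72 groups of 4 libraries examined for named members, 1 had a library far from the others. Kcnh5 in WT cerebellum was highest in replicate 2, and its gap to the next library was 0.861 of the range of the group, above Dixon's limit for 4 values. Chance alone passes that limit in about 1 of 20 groups, so a single one is fewer than chance gives. All 4 KO libraries were still above that library.

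In the tests of the difference itself (limma, adjusted over all genes), the KO effect on Kcnk3 was higher in testes than in liver by 0.982 on the log2 scale, a call that was lost without replicate 1, 4 or 8, and than in cerebellum by 0.991. Kcnk3 overlaps a gene on the other strand.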

How the results depend on the processing

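Of the 29 calls of members examined, 0 changed direction under any alternative, and 2 passed in each. Kcne2 in cerebellum, which was not called, went from -1.94 to 0.43 without KO libraries 5 and 6.

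In cerebellum, 10 members were called, 17 with sample weights, 1 in 1 fit over all libraries and 0 with neighbouring libraries summed. Leaving out 1 library gave 5 to 16, with 5 without WT replicate 1 or KO replicate 5 and 16 without KO replicate 6. In liver, 1 was called, 2 with edgeR, DESeq2, TMM or sample weights, 6 in 1 fit over all libraries, 3 without KO libraries 7 and 8 and 0 with libraries summed. In testes, 14 were called, 6 in 1 fit over all libraries and 0 with libraries summed, and leaving out 1 library gave 8 to 16 (9 without WT replicate 3 and 8 without WT replicate 4). Summing leaves fewer libraries by construction, and of all genes limma then called 47, 11 and 2 in cerebellum, liver and testes. The 25 calls within tissues were all lost there, with 7 lost in no other alternative (Kcnh5 in cerebellum, Kcnk5 in liver, and Kcnab2, Kcnab3, Kcnd3, Kcnk13 and Kcnk3 in testes). For the other changes the cause was not tested. Counts over all genes under the other alternatives are not given here.

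Single libraries decided some calls. In cerebellum, Kcnk10 was lost without WT 1, 3 or 4 or KO 5, 7 or 8 (-0.14 to -0.12), Kcna2 without WT 1 or 2 or KO 5, 7 or 8 (0.13 to 0.18), Kcnh7 without any WT library or KO 5 (0.32 to 0.39) and Kcnf1 without WT 1 (0.93). In testes, Kcnk6 was lost without WT 1, 3 or 4 or KO 7 or 8 (0.32 to 0.38), Kcng3 without any WT library or KO 7 or 8 (0.34 to 0.45), Kcnh3 without any WT library (0.89 to 1.13), Kcnq5 and Kcnma1 without WT 3 or 4 (0.73 to 0.74 and 0.32 for both) and Kcnk5 without WT 4 (-0.39).

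For the differences of KO effects, 1 member was called between testes and liver and 0 without replicate 1, 4 or 8 (range 0 to 1), where limma had 2, 1 and 1 members at an unadjusted p under 0.05. Between testes and cerebellum 2 were called, and 1 with edgeR, with the replicate block or without any of replicates 2 to 7 (range 1 to 2). Correlations of same-numbered deviations between tissues were -0.205 to 0.204 and 10 of 24 were over 0.1. All 4 KO pairs of testes and liver were over 0.1 (0.112 to 0.159) and 0 of their 4 WT pairs, so the numbers were not taken as pairs in any comparison, and 9 of 24 correlated best with their own number. Under the replicate block the count between testes and liver was 1 and that between cerebellum and liver 1, as without it. Counts of members differing between WT tissues in either direction were 65 to 70, 59 to 66 and 62 to 66, within 1.5 times, but the directions were not as stable. Testes against liver went from 50 higher and 10 lower (48% and 25.2% of all genes) to 30 and 29 (34.8% and 39.9%) with quantile normalization. Cerebellum against liver went from 61 and 8 (33.9% and 25.5% of all genes) to 63 and 5 (52% and 14.2%) with library totals. Low members are limited by depth, as 3 counts are up to 0.183 CPM.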
